A study of Mus musculus with 8 samples.

Results

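The nuclei described here were picked from mouse kidney as endothelial nuclei carrying markers of arteries and of the descending vasa recta. A nucleus was selected when it passed quality control, held at least 1 unique molecular identifier (UMI, 1 captured transcript) of at least 2 of the 4 endothelial genes Flt1, Ptprb, Emcn and Pecam1 and of at least 2 of the 5 markers Sox17, Gja4, Fbln5, Cxcl12 and Slc14a1, and held none of Plvap, a gene of fenestrated capillaries, or of Ehd3, a gene of glomerular capillaries. The rule selected 515 of 81391 nuclei (0.633%), or 515 of the 16164 nuclei with at least 2 of the 4 endothelial genes. The selection rests on measured UMIs, so the levels of these 11 genes are a description of the selection and were not tested.

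Blood enters the kidney through arteries and afferent arterioles, passes the glomerular capillaries and leaves through efferent arterioles, which in the deep cortex continue as descending vasa recta into the medulla. Arterial endothelium is known for Notch signalling, connexins that couple its cells, and contact with an elastic wall. The endothelium of descending vasa recta is continuous rather than fenestrated, and carries the urea transporter UT-B (Slc14a1) and the water channel aquaporin-1 (Aqp1), through which urea and water exchange with the hypertonic medulla. Peritubular capillaries and ascending vasa recta are fenestrated and carry Plvap at their diaphragms.

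Kidneys came from 8 male C57BL/6J mice, with 1 library per mouse and 2 mice in each of 4 groups. Ctrl mice were Bmal1lox/lox littermates, and cKOt mice were Bmal1lox/lox/Pax8-rtTA/LC-1, in which doxycycline induces Cre recombinase under the Pax8 promoter in renal tubules. The endothelium is not the cell type the deletion was aimed at, and whether any selected nucleus carried it was not determined here. All mice, Ctrl included, received doxycycline (2 mg/ml, with 20 mg/ml sucrose) in drinking water for 2 weeks from 8 weeks of age, and were fed ad libitum under equal periods of light and dark. Kidneys were taken at ZT4, in the light period, or at ZT16, in the dark period, and DAPI-sorted nuclei were sequenced with 10x Genomics 3′ chemistry.

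The libraries held 36548873 to 54500820 UMIs after quality control, and the selected nuclei held 148286 to 379930 of these per library. The Ctrl ZT4 libraries gave 58 and 70 selected nuclei, the Ctrl ZT16 libraries 89 and 64, the cKOt ZT4 libraries 43 and 77, and the cKOt ZT16 libraries 65 and 49. Levels are given as CPM (UMIs per 1000000) of the mRNA UMIs, or for lncRNAs of the lncRNA UMIs, summed over the nuclei of a library. At this depth 1 mRNA UMI stood for 3.13 to 8.17 CPM, and a count of 0 allowed a level of up to 9.38 to 24.5 CPM (3 UMIs). The median nucleus of the selection held 3091 UMIs, against 2199 in Plvap-positive endothelial nuclei. Scrublet marked 81 of the 515 as doublets (15.7%, against 9.95% of Plvap-positive, 10.4% of Ehd3-positive and 5.37% of all nuclei), and 92.6% held UMIs of at least 2 of 16 tubule markers, a share that was 92.0% in Plvap-positive nuclei. Between 18 and 42 barcodes were shared by each pair of libraries, and no barcode was selected in more than 1 library.

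Of the endothelial genes of the rule, Ptprb was detected in 418 of the 515 nuclei, Emcn in 401, Flt1 in 387 and Pecam1 in 308. Of the 5 markers, Fbln5, an elastic fibre protein, was detected in 351 nuclei, the arterial transcription factor Sox17 in 284, the chemokine Cxcl12 in 242, Slc14a1 in 180 and the connexin Gja4 in 55. Most nuclei were near the edge of the rule. Exactly 2 of the 5 markers were found in 438 nuclei, 3 in 72, 4 in 5 and all 5 in 0 nuclei, and in 124 nuclei the markers summed to 2 UMIs. Just outside the rule lay 1085 nuclei with 1 marker that met the other conditions, 942 nuclei with 2 or more markers but 1 endothelial gene, and 462 nuclei with enough of both that held Plvap or Ehd3, of which 190 held exactly 1 such UMI.

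The most frequent combination was Fbln5 with Cxcl12 and no other marker, in 172 nuclei (33.4%). Sox17 with Slc14a1 followed with 96 nuclei, Sox17 with Fbln5 with 82, and Sox17, Fbln5 and Slc14a1 together with 30. The nuclei were therefore described in 3 classes, namely the 180 Slc14a1-positive nuclei, the 163 nuclei with Sox17 or Gja4 and no Slc14a1 (Sox17/Gja4 nuclei), and the 172 Fbln5-Cxcl12 nuclei. The plot of nuclei by library shows these classes. Every library held all 3 of them, with 9 to 39 Fbln5-Cxcl12 nuclei.

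**Figure D1:**
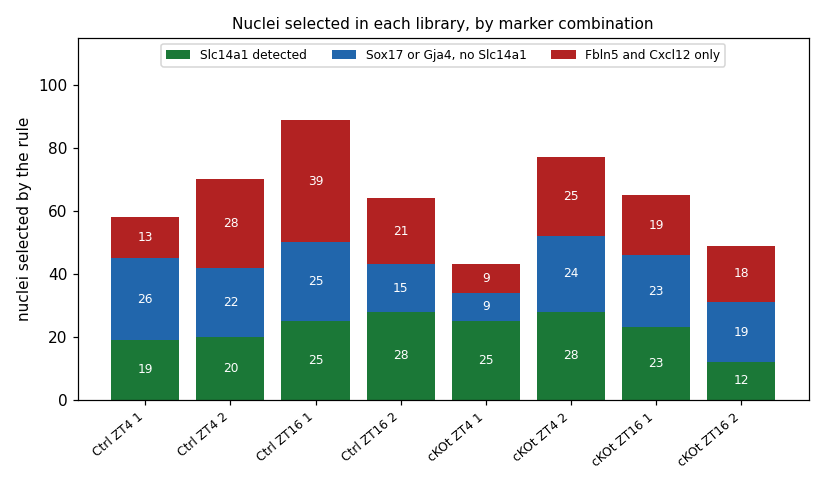
Number of nuclei selected in each of the 8 libraries (y axis, nuclei), stacked by marker class: Slc14a1 detected, Sox17 or Gja4 without Slc14a1, and Fbln5 with Cxcl12 only. The bars total 43 to 89 nuclei, and each library holds all 3 classes.

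Marker genes outside the rule went with the label in the first 2 classes and against it in the third. The 19 arterial genes not used by the rule summed to 10000.2 ± 2182 CPM (mean ± SD, 8 libraries) in Sox17/Gja4 nuclei and to 7867 ± 1018 CPM in Slc14a1-positive nuclei, but to 2954 ± 1449.7 CPM in Fbln5-Cxcl12 nuclei, close to the 2991 ± 296 CPM of Plvap-positive nuclei and the 2926 ± 499 CPM of stromal nuclei. The descending vasa recta genes Aqp1 and Scin summed to 1627 ± 292 CPM, 638 ± 277 CPM and 94.7 ± 127 CPM in the 3 classes. The 8 further endothelial genes summed to 2537 ± 436 CPM and 2563 ± 696 CPM in the first 2 classes and to 1020.1 ± 215 CPM in Fbln5-Cxcl12 nuclei, against 4264 ± 351 CPM in Plvap-positive and 513 ± 61.5 CPM in stromal nuclei. At least 3 of the endothelial genes of the rule were found in 44 of the 172 Fbln5-Cxcl12 nuclei and in 284 of the other 343.

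In place of these, the Fbln5-Cxcl12 nuclei held stromal transcripts. The 5 genes of the mesangial, pericyte and stromal list summed to 1139.9 ± 278 CPM there and to 1633 ± 192 CPM in stromal nuclei (at least 2 of these 5 genes and fewer than 2 endothelial genes), against 62.3 ± 56.1 CPM in Slc14a1-positive, 125 ± 86.2 CPM in Sox17/Gja4 and 44.6 ± 12.6 CPM in Plvap-positive nuclei. No library of the first 2 classes reached the level of any Fbln5-Cxcl12 library. Pdgfra, a receptor of fibroblasts, had 686 ± 217 CPM in Fbln5-Cxcl12 nuclei and 42.2 ± 29.2 CPM in the other 343 together. Among stromal nuclei 75.8% held Fbln5 and 52.5% Cxcl12, but 0.336% each held Sox17 and Slc14a1. Scrublet marked 20.9% of the Fbln5-Cxcl12 nuclei as doublets, against 13.1% of the other selected nuclei, and the part of stromal or doubly filled droplets in this class was not tested. Since 1 marker class goes against the label, the 515 are called the selected nuclei below, and values without the 172 stand beside the main counts and many of the genes.

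Transcripts of other cell types were present throughout. Over the 8 libraries the selected nuclei had summed levels of 221 to 628 CPM for the 5 stromal genes (32.2 to 162 CPM without the Fbln5-Cxcl12 nuclei), 94.1 to 328 CPM for the 7 smooth muscle and juxtaglomerular genes, 1675 to 4433 CPM for the 7 proximal tubule genes (2356 to 3667 CPM in Plvap-positive and 8250.0 to 11879 CPM in proximal tubule nuclei), 40.3 to 98.0 CPM for the 6 lymphatic genes, of which Mmrn1 was at 0 UMIs, and 8.56 to 188 CPM for the 6 immune genes, of which C1qa and C1qb were at 0 UMIs. The plot of marker lists gives the values by class.

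**Figure D2:**
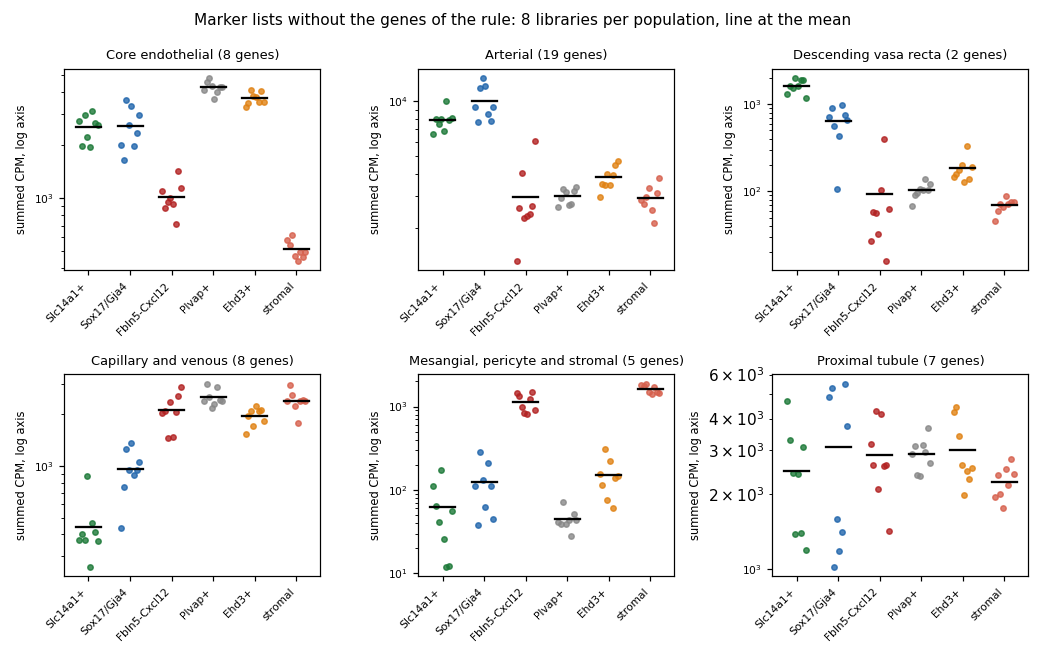
Summed level of 6 marker lists without the 11 genes of the rule (y axis, CPM on a log axis) in the 3 classes of selected nuclei and in Plvap-positive, Ehd3-positive and stromal nuclei. Points are the 8 libraries and lines their means. Fbln5-Cxcl12 nuclei lie with the stromal nuclei on the stromal list (means 1139.9 and 1633 CPM) and below the other classes on the arterial list.

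The first comparison asked how the selected nuclei differ from Plvap-positive endothelial nuclei of the same mice. Set against the 7490 Plvap-positive endothelial nuclei, they had higher transcripts of arterial and descending vasa recta genes and lower transcripts of capillary and venous genes such as Igf1 and Nlgn1, of Ednrb and of Kdr. Counts were summed per library and tested with library as a block (edgeR quasi-likelihood, adjusted p under 0.05). Of 14448 genes tested without the genes of the rule, 2176 (15.1%) were called, 949 of them higher (6.57%) and 1227 lower (8.49%). Without the Fbln5-Cxcl12 nuclei, 1581 of 14418 (11%) were called, 510 higher (3.54%) and 1071 lower (7.43%), and 1271 genes were called in both (58.4% and 80.4% of the 2 lists), 1260 of them in the same direction. DESeq2 size factors divided the calls in another way, with 1089 higher and 953 lower in edgeR and 1021 higher and 815 lower in DESeq2. Both sets of nuclei were chosen by UMIs of the rule genes in these same libraries, so genes that accompany those markers had to differ, and members of the lists are read beside these shares as a description.

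Of the 19 arterial genes outside the rule, all passed the filter on low counts, 12 were called higher and 3 lower, with a median log2 difference of 2.15 against -0.08 over all genes tested. Bmx, a tyrosine kinase typical of arterial endothelium, ranged from 73.5 to 141 CPM (median 125 CPM) in the selected nuclei and from 1.39 to 5.43 CPM (median 2.16 CPM) in Plvap-positive nuclei (log2 fold change 5.32 ± 0.25 with an adjusted p = 6.1e-19, and 5.89 ± 0.27 with an adjusted p = 3.5e-22 without the Fbln5-Cxcl12 nuclei). Vegfc, a ligand of VEGF receptor 3, ranged from 406 to 783 CPM (median 491 CPM) against from 29.3 to 64.9 CPM (median 45.6 CPM) (log2 fold change 3.51 ± 0.11 with an adjusted p = 1.2e-23, and 3.96 ± 0.14 with an adjusted p = 1.5e-26 without the Fbln5-Cxcl12 nuclei). For both genes the lowest library of the selected nuclei lay above the highest of the Plvap-positive nuclei.

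Gja5, the connexin 40 that joins arterial endothelial cells, ranged from 15.7 to 107 CPM (median 46.1 CPM) against from 2.49 to 5.55 CPM (median 3.59 CPM) (log2 fold change 3.68 ± 0.31 with an adjusted p = 4.8e-12, and 4.18 ± 0.34 with an adjusted p = 1.1e-13 without the Fbln5-Cxcl12 nuclei). Sema3g, a secreted semaphorin of arteries, ranged from 84.7 to 129.8 CPM (median 116 CPM) against from 46.6 to 62.6 CPM (median 52.9 CPM) (log2 fold change 0.99 ± 0.15 with an adjusted p = 2.0e-06, and 1.43 ± 0.17 with an adjusted p = 9.1e-09 without the Fbln5-Cxcl12 nuclei). Neither gene had overlapping ranges. Mecom, a transcription factor, Edn1, the precursor of the vasoconstrictor endothelin-1, Alox12, a lipoxygenase, and the matrix genes Eln, Mgp and Fbln2 were also called higher, with log2 differences of 2.22 ± 0.10, 3.52 ± 0.27, 2.15 ± 0.29, 2.38 ± 0.18, 3.33 ± 0.20 and 3.65 ± 0.37 in that order. Efnb2 (ephrin-B2), Unc5b, a netrin receptor, and Nrp1, a co-receptor of VEGF, were called lower at -0.43 ± 0.12, -0.80 ± 0.20 and -0.96 ± 0.10, and of these 3 only Nrp1 was called lower without the Fbln5-Cxcl12 nuclei (-1.20 ± 0.12). Efnb2 was also not called in DESeq2 (adjusted p = 0.074) or without Ctrl ZT4 replicate 2 (adjusted p = 0.058).

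Notch signalling passes from ligands on one cell to receptors on the next. Of the 10 genes listed, 9 were tested, 3 called higher and 2 lower. The ligands Jag1 and Jag2 were higher by 2.68 ± 0.15 and 1.21 ± 0.24 and the receptor Notch4 by 0.44 ± 0.14, while the receptor Notch1 and the target gene Hes1 were lower at -0.67 ± 0.14 and -0.79 ± 0.16 (log2, SE). Jag1 ranged from 156 to 344 CPM (median 188 CPM) in the selected nuclei and from 22.4 to 39.9 CPM (median 30.5 CPM) in Plvap-positive nuclei, without overlap. The same 5 genes were called in the same directions without the Fbln5-Cxcl12 nuclei, Jag1 at 3.08 ± 0.16. With all selected nuclei the call of Notch4 was lost without Ctrl ZT4 replicate 1, cKOt ZT4 replicate 2 or cKOt ZT16 replicate 1 (adjusted p = 0.081, 0.066 and 0.14).

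Both descending vasa recta genes outside the rule were called higher. Aqp1 ranged from 235 to 496 CPM (median 331 CPM) against from 36.8 to 53.0 CPM (median 47.3 CPM) (log2 fold change 2.81 ± 0.13 with an adjusted p = 4.6e-19, and 3.33 ± 0.14 with an adjusted p = 3.8e-24 without the Fbln5-Cxcl12 nuclei), and Scin, an actin-severing protein, from 263 to 752 CPM (median 463 CPM) against from 26.7 to 97.4 CPM (median 53.7 CPM) (log2 fold change 3.03 ± 0.15 with an adjusted p = 6.1e-19, and 3.59 ± 0.15 with an adjusted p = 2.7e-24 without the Fbln5-Cxcl12 nuclei). The ranges of neither gene overlapped. Of 15 solute transport genes tested out of 16 listed, 7 were called higher and none lower. Beside Aqp1 these were Slco2a1, a prostaglandin transporter (2.01 ± 0.18), Slc7a1, a transporter of cationic amino acids (1.72 ± 0.16), Slc38a2, a transporter of neutral amino acids (0.64 ± 0.10), Slc5a3, the myo-inositol transporter (0.65 ± 0.11), and the efflux pumps Abcb1a (2.17 ± 0.54) and Abcg2 (0.63 ± 0.10). Without the Fbln5-Cxcl12 nuclei Slc6a6 was called higher as well and Slco3a1 lower. Of the 7, only Aqp1 was called without selected nuclei with tubule UMIs, as given below. The Plvap-positive nuclei were not filtered in this way.

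Most capillary and venous genes were lower. Of the 8 capillary and venous genes outside the rule, 6 were called lower and Nr2f2, a transcription factor of venous endothelium, higher. Nlgn1, an adhesion protein, ranged from 3.13 to 12.8 CPM (median 8.00 CPM) in the selected nuclei and from 511 to 626 CPM (median 578 CPM) in Plvap-positive nuclei (log2 fold change -6.36 ± 0.20 with an adjusted p = 4.3e-24, and -6.14 ± 0.23 with an adjusted p = 2.5e-25 without the Fbln5-Cxcl12 nuclei). Igf1, a growth factor, ranged from 9.27 to 86.1 CPM (median 32.9 CPM) against from 243 to 520.3 CPM (median 374 CPM) (log2 fold change -3.47 ± 0.18 with an adjusted p = 1.1e-17, and -4.17 ± 0.22 with an adjusted p = 3.5e-20 without the Fbln5-Cxcl12 nuclei). Both lay below the Plvap-positive range in all 8 libraries. Nr2f2 had 747 ± 249 CPM in Fbln5-Cxcl12 nuclei, 133 ± 47.1 CPM in the other selected nuclei and 169 ± 17.5 CPM in Plvap-positive nuclei, and its call was lost without the Fbln5-Cxcl12 nuclei (log2 fold change -0.45 ± 0.16, adjusted p = 0.061).

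VEGF and angiopoietin genes followed the same order, with 7 of 10 tested genes called lower and 2 higher (6 and 2 without the Fbln5-Cxcl12 nuclei). The receptors Kdr (VEGF receptor 2), Flt4 (VEGF receptor 3), Tek and Tie1 were lower by -2.97 ± 0.13, -1.57 ± 0.17, -1.69 ± 0.10 and -0.97 ± 0.13, whereas the ligands Vegfc, given above, and Angpt1 (2.14 ± 0.14) were higher (log2, SE). Kdr ranged from 49.0 to 136 CPM (median 94.4 CPM) against from 478 to 848 CPM (median 688 CPM), and its log2 fold change was -2.82 ± 0.15 without the Fbln5-Cxcl12 nuclei. Among 18 vasoactive genes tested, 4 were called higher, namely Edn1, the angiotensin receptor Agtr1a, the prostacyclin synthase Ptgis and the potassium channel Kcnn3, and 6 lower. With the Fbln5-Cxcl12 nuclei left out 4 were called higher and 4 lower, with Ptgis no longer called (-0.06 ± 0.56, adjusted p = 0.98), the sphingosine phosphate receptor S1pr1 called higher, and Ramp2 and Piezo1, a mechanosensitive channel, no longer called lower. The lower ones in both included Ednrb, the endothelin B receptor, which ranged from 4.63 to 68.0 CPM (median 23.5 CPM) against from 285 to 507 CPM (median 391 CPM) (log2 fold change -4.01 ± 0.20 with an adjusted p = 3.2e-18, and -3.90 ± 0.24 with an adjusted p = 1.2e-17 without the Fbln5-Cxcl12 nuclei), and Ece1, the enzyme that releases endothelin-1 (-0.98 ± 0.14). Neither Kdr nor Ednrb overlapped between the 2 sets.

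Beyond the lists, called mRNAs among those of largest fold with at least 50 CPM in the higher set in every library were Lgr5 (5.61), Lef1 (5.11), Hpgd (4.32), Col12a1 (4.20), Rerg (4.07), Grm7 (3.86), Frem1 (3.79), Atp2a3 (3.76) and Gpc6 (3.66) on the higher side and Robo3 (-4.70), Tll1 (-4.12), Rgcc (-3.61), Exoc3l2 (-3.45), Ramp3 (-3.36) and Tbxa2r (-3.18) on the lower side (log2 differences). Lgr5 is a receptor of R-spondins and ranged from 62.5 to 230.2 CPM (median 188 CPM) against from 0 to 7.47 CPM (median 3.33 CPM). Lef1 is a transcription factor of Wnt signalling and ranged from 383 to 882 CPM (median 527 CPM) against from 8.07 to 26.3 CPM (median 15.1 CPM). Neither gene overlapped between the sets, and without the Fbln5-Cxcl12 nuclei their log2 differences were 6.18 ± 0.28 and 5.67 ± 0.16. Gpc6, a glypican, had 2087 ± 475 CPM in Fbln5-Cxcl12 nuclei and 201 ± 162 CPM in the others, and its difference fell to 1.52 ± 0.23 without the former. The lncRNAs were Gm33206 (5.47), Mannr (4.80) and 6530403H02Rik (4.05) on the higher side and 4930402D18Rik (-4.12), 4930542D17Rik (-3.98) and D830026I12Rik (-3.49) on the lower side, of which 6530403H02Rik had 0.30 ± 0.42 without the Fbln5-Cxcl12 nuclei.

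The remaining lists gave the following counts called higher and lower, of those tested. Of other endothelial genes 1 and 7 of 8 were called, with Vwf (von Willebrand factor) the higher one, and 1 and 5 of 8 without the Fbln5-Cxcl12 nuclei. Junction genes gave 2 and 5 of 10, with Gja5 and the claudin Cldn5 higher, and 3 and 2 without the Fbln5-Cxcl12 nuclei. Matrix genes gave 5 and 4 of 12 (4 and 5 without those nuclei), glomerular endothelial genes 2 and 0 of 3 (the same), lymphatic genes 0 and 4 of 5 (the same), and glucocorticoid targets 3 and 2 of 9 (2 and 3). Heat shock genes gave 0 and 1 of 10. Clock genes gave 2 and 0 of 19 and 0 and 1 of 19 without the Fbln5-Cxcl12 nuclei. Among other cell types, stromal genes gave 5 and 0 of 5 (1 and 0 of 5 without the Fbln5-Cxcl12 nuclei), smooth muscle and juxtaglomerular genes 5 and 0 of 6 (2 and 0 of 6), proximal tubule genes 0 and 0 of 7, thick limb and distal genes 0 and 1 of 5, collecting duct genes 0 and 1 of 3, urothelial genes 0 and 0 of 1, podocyte genes 0 and 3 of 5 (0 and 2) and immune genes 0 and 1 of 5 (0 and 2).

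Requiring at least 3 of the 5 markers leaves 72 nuclei with 3 and 5 nuclei with 4 markers, and leaving out nuclei with UMIs of at least 2 of 16 tubule markers takes out 92.6% of the selected nuclei. The tubule filter was applied to the selected nuclei alone. Plvap-positive and Ehd3-positive nuclei, of which 92.0% and 93.2% held such UMIs, were kept whole. The filtered comparisons therefore set nuclei with few tubule UMIs against nuclei that mostly held them. Under these settings calls of several genes of the lists and of largest fold were lost, given here with the log2 difference and the adjusted p. Without nuclei with tubule UMIs these were Abcb1a (1.15, 0.6), Abcg2 (-0.89, 0.14), Alox12 (1.74, 0.084), Angpt2 (-0.88, 0.3), Edn1 (0.085, 0.97), Efnb2 (-1.14, 0.073), Fbln2 (2.80, 0.068), Gja5 (2.36, 0.11), Hes1 (-1.25, 0.17), Hspg2 (-0.84, 0.14), Jag2 (1.03, 0.24), Kcnn3 (0.83, 0.7), Notch1 (-1.22, 0.096), Notch4 (-0.31, 0.68), Nr2f2 (-0.17, 0.79), Ramp2 (-1.20, 0.16), Sema3g (0.64, 0.39), Slc38a2 (-0.19, 0.72), Slc5a3 (-0.76, 0.26), Slc7a1 (0.54, 0.5), Slco2a1 (1.21, 0.099), Tie1 (-0.87, 0.15), Unc5b (-0.87, 0.34) and Vwf (-0.16, 0.92). With at least 3 markers they were 6530403H02Rik (-0.096, 0.89), Angpt2 (-0.54, 0.4), Efnb2 (-0.20, 0.66), Kcnn3 (1.46, 0.27), Notch1 (-0.67, 0.16), Notch4 (0.34, 0.56), Nr2f2 (-0.13, 0.83), Ptgis (-1.42, 0.5), Ramp2 (-0.88, 0.14), Slc5a3 (0.056, 0.93), Unc5b (-0.51, 0.49) and Vwf (-0.85, 0.58). With thinned nuclei Notch4 (0.51, 0.059) was lost. Bmx, Vegfc, Jag1, Aqp1, Scin, Nlgn1, Igf1, Kdr and Ednrb were called in the same direction under these 3 settings.

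**Figure D3:**
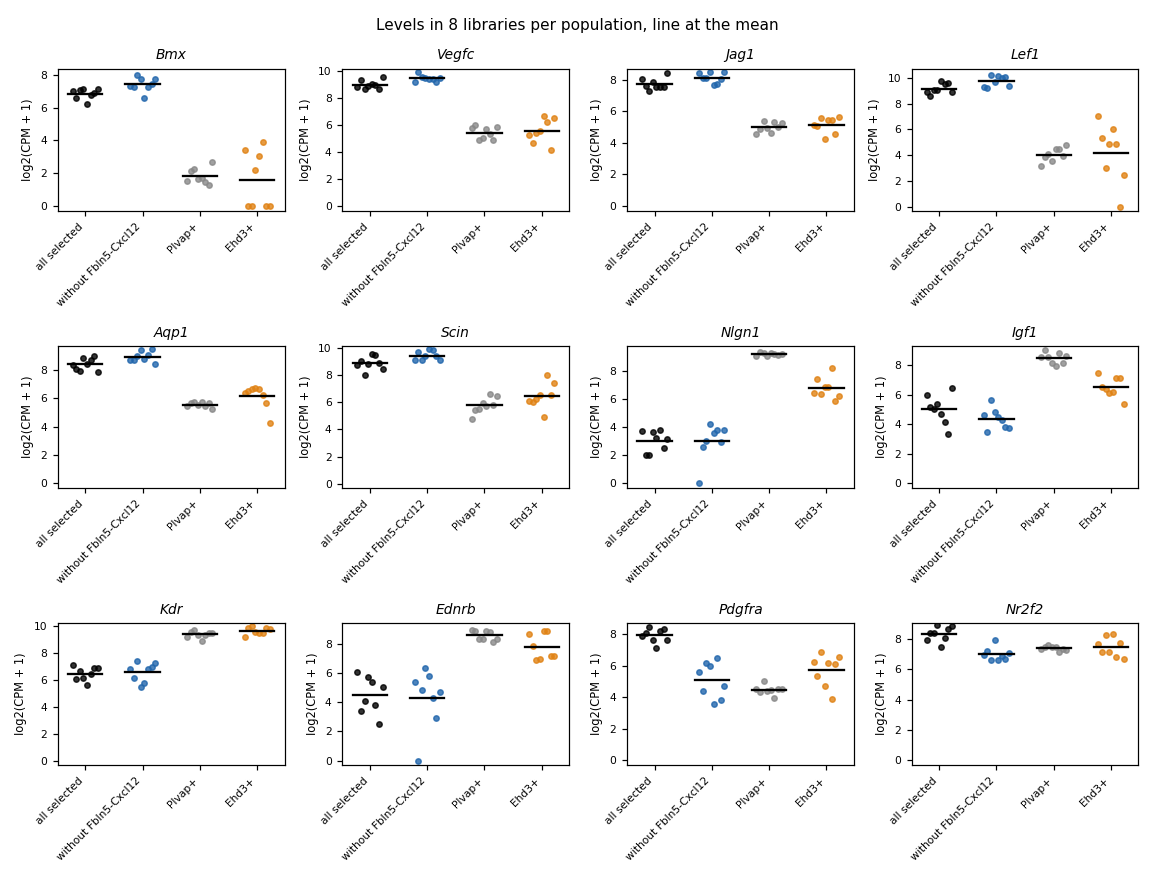
Levels of 12 genes (y axis, log2(CPM + 1)) in all selected nuclei, in the selected nuclei without the Fbln5-Cxcl12 class, and in Plvap-positive and Ehd3-positive endothelial nuclei. Points are 8 libraries and lines their means. Bmx, Vegfc, Jag1, Lef1, Aqp1 and Scin lie above the Plvap-positive nuclei in every library, Nlgn1, Igf1, Kdr and Ednrb below, and Pdgfra drops when the Fbln5-Cxcl12 class is left out.

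Glomerular capillaries, marked by Ehd3, are the other specialised endothelium of the kidney, and the comparison with them shares the selected nuclei with the comparison above. Against 731 Ehd3-positive nuclei, 1109 of 9476 genes (11.7%) were called, 604 higher (6.37%) and 505 lower (5.33%), and 873 of 8828 (9.89%) without the Fbln5-Cxcl12 nuclei, 421 higher and 452 lower. Lower calls also outnumbered higher ones with at least 3 markers (176 higher and 407 lower) and without nuclei with tubule UMIs (45 higher and 840 lower). Of the arterial genes, 12 of 18 tested were called higher and 2 lower (12 and 1 when the Fbln5-Cxcl12 nuclei were left out), with a median log2 difference of 1.78 against -0.01 over all genes. Bmx ranged from 0 to 14.0 CPM (median 1.79 CPM) in Ehd3-positive nuclei (log2 fold change 4.75 ± 0.39 with an adjusted p = 2.1e-09, and 5.32 ± 0.39 with an adjusted p = 2.2e-10 without the Fbln5-Cxcl12 nuclei) and Vegfc from 16.9 to 101 CPM (median 44.3 CPM) (log2 fold change 3.34 ± 0.19 with an adjusted p = 4.6e-12, and 3.82 ± 0.21 with an adjusted p = 1.9e-12 without the Fbln5-Cxcl12 nuclei), below all libraries of the selected nuclei. Kdr ranged from 601 to 1033 CPM (median 816 CPM) (log2 fold change -3.16 ± 0.16 with an adjusted p = 7.4e-13, and -2.98 ± 0.17 with an adjusted p = 4.3e-12 without the Fbln5-Cxcl12 nuclei) and Ednrb from 116 to 483 CPM (median 189 CPM) (log2 fold change -3.22 ± 0.28 with an adjusted p = 6.9e-09, and -3.12 ± 0.35 with an adjusted p = 2.9e-07 without the Fbln5-Cxcl12 nuclei), above all of them.

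Both descending vasa recta genes were called higher, Aqp1 by 2.10 ± 0.20 and Scin by 2.23 ± 0.22 (log2, SE), and by 2.68 ± 0.19 and 2.83 ± 0.22 without the Fbln5-Cxcl12 nuclei. Of 12 solute transport genes 6 were higher and none lower (6 and 1 without those nuclei). Of the other mRNAs of largest fold, Lef1 (4.05), Vim (3.37), Col12a1 (3.31), Tspan8 (3.03), Hpgd (3.02), Ptprr (2.96) and Nebl (2.90) were higher and Nlgn1 (-4.01), Prdm1 (-3.61), Edil3 (-3.36), Btnl9 (-3.27), Ramp3 (-3.21), Tll1 (-3.18), Exoc3l2 (-3.14) and Npr3 (-3.01) lower. Lgr5 had 1 UMI in all Ehd3-positive nuclei together and 290 in the selected nuclei, and was called higher (adjusted p = 8.3e-13). The lncRNAs were Gm33206 (4.81), Gm15997 (4.08) and Mannr (4.02) on the higher side and Gm30382 (-3.95), Gm16252 (-3.14) and Gm12002 (-2.88) on the lower side. For the other lists the counts higher and lower were 1 and 7 of 8 for capillary and venous genes, 3 and 2 of 7 for Notch, 3 and 4 of 15 for vasoactive, 3 and 2 of 10 for junction, 5 and 4 of 12 for matrix and 2 and 6 of 10 for VEGF and angiopoietin genes. They were 0 and 7 of 8, 3 and 1 of 7, 3 and 4 of 13, 3 and 2 of 10, 4 and 4 of 12 and 2 and 4 of 10 in that order when the Fbln5-Cxcl12 nuclei were left out.

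Against Ehd3-positive nuclei the same settings also ended calls. Without nuclei with tubule UMIs these were Abcg2 (-0.59, 0.37), Agtr1a (0.23, 0.79), Angpt1 (0.38, 0.56), Aqp1 (0.95, 0.19), Ece1 (-1.31, 0.1), Flt4 (-1.56, 0.14), Hspg2 (-0.62, 0.31), Igf1 (-0.51, 0.57), Jag1 (1.45, 0.066), Jag2 (1.14, 0.21), Mgp (1.13, 0.15), Notch1 (-1.20, 0.11), Notch4 (0.11, 0.91), Nr2f2 (-0.10, 0.9), Sema3g (0.86, 0.3), Slc38a2 (0.054, 0.94), Slc5a3 (-0.29, 0.71), Slc7a1 (0.65, 0.48), Slco2a1 (0.67, 0.42), Tie1 (-0.49, 0.47) and Tspan8 (1.54, 0.057), and Hes1 (adjusted p = 0.3). With at least 3 markers they were Agtr1a (0.21, 0.87), Angpt1 (0.61, 0.2), Efnb2 (-0.44, 0.41), Flt4 (-1.10, 0.2), Hspg2 (-0.69, 0.11), Notch1 (-0.67, 0.22), Notch4 (0.79, 0.22), Nr2f2 (-0.055, 0.96), Slc5a3 (0.52, 0.37) and Tie1 (-0.77, 0.14). With thinned nuclei Notch4 (0.66, 0.052) was lost, and with DESeq2 Agtr1a (0.80, 0.051), Hes1 (-0.78, 0.11), Notch4 (0.74, 0.099) and Ptgis (1.53, 0.097). With a library left out the call of Notch4 was lost without Ctrl ZT4 replicate 1, cKOt ZT4 replicate 1, cKOt ZT4 replicate 2, cKOt ZT16 replicate 1 or cKOt ZT16 replicate 2 (adjusted p = 0.05 to 0.1), that of Vwf without Ctrl ZT4 replicate 2, cKOt ZT4 replicate 2 or Ctrl ZT16 replicate 1 (adjusted p = 0.062 to 0.098), and that of Ptgis without any library other than cKOt ZT4 replicate 1 (adjusted p = 0.056 to 0.13).

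The second comparison was within the selection, between nuclei with and without Slc14a1. Slc14a1-positive nuclei had higher transcripts of the transporters Slc7a1, Slco4a1 and Slc5a3, of Akr1b3 and of the descending vasa recta genes Aqp1 and Scin, and Slc14a1-negative nuclei had higher transcripts of Mgp, Eln, Klf4 and Slco2a1. Of 6791 genes tested between the 180 and the 335 nuclei, 879 (12.9%) were called, 355 higher (5.23%) and 524 lower (7.72%). All 172 Fbln5-Cxcl12 nuclei are among the Slc14a1-negative ones. Of the 180 nuclei, 56 held exactly 1 Slc14a1 UMI. The median Slc14a1-positive nucleus held 3301 UMIs in total, and the median Sox17/Gja4 nucleus 2636. A nucleus without such a UMI may still express Slc14a1, and the part of depth in the assignment to classes was not tested. The classes were set by UMIs of markers of the rule in these same libraries, so genes that accompany these markers had to differ, and the values below are a description of the classes. Between the 180 and the 163 Sox17/Gja4 nuclei alone, 245 of 5023 (4.88%) were called, 142 higher (2.83%) and 103 lower (2.05%), and 195 genes were called both times (22.2% and 79.6% of the 2 lists), 194 of them in the same direction. The comparison with the Sox17/Gja4 nuclei alone was added after the data were seen. It was run in edgeR only, with all libraries, and was not repeated under the other settings. The log2 differences below are those between Slc14a1-positive and Sox17/Gja4 nuclei, and where a value against all 335 is given it stands in second place.

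Among transporters, Slc7a1 ranged from 149 to 414 CPM (median 334 CPM) in Slc14a1-positive and from 0 to 79.4 CPM (median 47.5 CPM) in Sox17/Gja4 nuclei (2.68 ± 0.32, adjusted p = 1.6e-06, and 3.07 ± 0.26 against all 335). Slco4a1, an organic anion transporter, ranged from 175 to 427 CPM (median 281 CPM) against from 0 to 70.3 CPM (median 27.3 CPM) (3.29 ± 0.37, adjusted p = 6.7e-07, and 3.15 ± 0.32 against all 335). Slc5a3 ranged from 242 to 728 CPM (median 464 CPM) against from 38.1 to 290.2 CPM (median 125 CPM) (1.97 ± 0.28, adjusted p = 2.3e-05, and 1.27 ± 0.19 against all 335). Slc7a1 and Slco4a1 did not overlap between the 2 classes, and Slc5a3 did. These classes held 12 to 28 and 9 to 26 nuclei per library. Over both together 1 mRNA UMI stood for 5.02 to 12.5 CPM, and for more within a class. Low levels and ranges without overlap in this comparison can therefore rest on few UMIs. Of 11 solute transport genes tested, 4 were called higher (Aqp1, Slc7a1, Slc38a2, Slc5a3) and Slco2a1 lower.

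Aqp1 and Scin, the other descending vasa recta genes, were both called. Aqp1 ranged from 382 to 1001 CPM (median 637 CPM) against from 106 to 438 CPM (median 293 CPM) (1.12 ± 0.25, adjusted p = 0.0042, and 1.99 ± 0.24 against all 335) and Scin from 652 to 1222 CPM (median 968 CPM) against from 0 to 596 CPM (median 425 CPM) (1.51 ± 0.28, adjusted p = 6.3e-04, and 2.41 ± 0.27 against all 335). The Scin levels were apart in all libraries, while those of Aqp1 overlapped. Akr1b3, aldose reductase, which makes the osmolyte sorbitol, ranged from 202 to 857 CPM (median 576 CPM) against from 0 to 113 CPM (median 66.3 CPM) (3.18 ± 0.31, adjusted p = 7.4e-08, and 2.89 ± 0.31 against all 335). Nfat5, a transcription factor of the response to hypertonicity, ranged from 1623 to 3060.1 CPM (median 2234 CPM) against from 875 to 1668 CPM (median 1155 CPM) (1.00 ± 0.17, adjusted p = 1.4e-04, and 1.28 ± 0.15 against all 335). The small heat shock protein Cryab and the hypoxia-inducible factor Hif1a were higher by 2.09 ± 0.34 and 2.05 ± 0.28. Akr1b3 and Hif1a did not overlap between the classes, and Nfat5 and Cryab did. Akr1b3 and Cryab were named by fold, while Nfat5 and Hif1a lie outside the rule for named genes and were chosen after their values were seen.

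Arterial genes ran the other way. None was called higher in Slc14a1-positive than in Sox17/Gja4 nuclei, and 10 of 18 were called lower, with a median log2 difference of -1.04 against 0.01 over all genes, whereas against all 335 nuclei Notch4 and Mecom were called higher and 6 genes lower. The rule was unequal here. A nucleus without Slc14a1 had to hold at least 2 of Sox17, Gja4, Fbln5 and Cxcl12, and a nucleus with it only 1 of them. Lower arterial genes in Slc14a1-positive nuclei could thus follow from the selection, whose part was not tested. Mgp, an inhibitor of calcification, ranged from 0 to 53.1 CPM (median 20.9 CPM) against from 106 to 1434 CPM (median 296 CPM) (-4.01 ± 0.43, adjusted p = 3.6e-07, and -3.79 ± 0.36 against all 335). Eln, elastin, ranged from 31.9 to 166 CPM (median 57.9 CPM) against from 248 to 1266 CPM (median 421 CPM) (-2.92 ± 0.26, adjusted p = 1.1e-08, and -2.09 ± 0.24 against all 335). Both were lower in every Slc14a1-positive library than in any Sox17/Gja4 library. The others were Fbln2 (-4.45 ± 0.65), Ltbp4 (-2.51 ± 0.45), Klf4 (-2.54 ± 0.48), Efnb2 (-1.47 ± 0.28), Vegfc (-1.31 ± 0.23), Sema3g (-1.17 ± 0.31), Jag1 (-0.95 ± 0.24) and Nrp1 (-1.14 ± 0.24). Klf4, given above, and Klf2 (-1.65 ± 0.33, and -0.90 ± 0.31 against all 335) are transcription factors that endothelium raises under laminar shear, and with Ramp2, a partner of the adrenomedullin receptor (-2.29 ± 0.39), made up the 3 lower of 11 vasoactive genes. Against all 335 the call of Klf2 (adjusted p = 0.049) was lost in DESeq2 (adjusted p = 0.095), with thinned nuclei (adjusted p = 0.11) and without any library other than Ctrl ZT4 replicate 1 or cKOt ZT16 replicate 1 (adjusted p = 0.055 to 0.19). Slco2a1 ranged from 0 to 148 CPM (median 53.6 CPM) against from 183 to 659 CPM (median 256 CPM) (-2.40 ± 0.32, adjusted p = 8.0e-06, and -1.80 ± 0.31 against all 335).

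Of the mRNAs of largest fold against all 335 nuclei, Col4a6 (2.68), Stxbp6 (2.68), Lef1 (2.44), Ifi44 (2.28), Tnfrsf19 (2.21) and Prom1 (2.17) were also higher. Lower in the Slc14a1-positive nuclei were Kcnd2 (-6.44), Col15a1 (-5.40), Abca9 (-5.10), Ntf3 (-4.76), Itih5 (-4.31), Bgn (-4.23), Rasgef1b (-4.20) and Adamts2 (-4.08), each with a higher mean level in Fbln5-Cxcl12 than in Sox17/Gja4 nuclei. Lrriq1 had 0 UMIs in Slc14a1-positive nuclei and 342 in the others. Nebl, an actin-binding protein, ranged from 0 to 13.0 CPM (median 0 CPM) in Slc14a1-positive and from 155 to 1081 CPM (median 377 CPM) in Sox17/Gja4 nuclei, without overlap (-6.54 ± 0.44, and -5.66 ± 0.48 against all 335). The lncRNAs were Gm15997 (3.77), D5Ertd615e (2.50) and B630019A10Rik (2.38) on the higher side and Gm32647 (-7.02), 6530403H02Rik (-5.48) and Gm17167 (-4.96) on the lower side. None of the lower 3 passed the filter on low counts without the Fbln5-Cxcl12 nuclei, in which Gm32647 had 4838 ± 2602 CPM and Gm17167 1094 ± 482 CPM, against 494 ± 1213 and 84.1 ± 99.2 CPM in Sox17/Gja4 nuclei. Against the Sox17/Gja4 nuclei the counts higher and lower were 1 and 5 of 11 for matrix genes with Hspg2 (perlecan) higher, 1 and 4 of 10 for VEGF and angiopoietin genes with Angpt2 higher, 0 and 2 of 7 for Notch genes, 0 and 1 of 7 for junction genes and 1 and 0 of 5 for heat shock genes with Hsph1 higher. Proximal tubule genes gave 0 and 0 of 7 and stromal genes 0 and 0 of 1.

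When at least 3 of the 5 markers were required of a selected nucleus, 40 of 1436 genes were called against all Slc14a1-negative nuclei. The calls lost then were Abcg2 (0.96, 0.35), Akr1b3 (2.50, 0.1), Aqp1 (1.03, 0.33), B630019A10Rik (1.54, 0.36), D5Ertd615e (2.10, 0.1), Hspg2 (1.00, 0.57), Mecom (-0.041, 0.98), Nr2f2 (0.15, 0.98), Nrp1 (-0.49, 0.79), Slc5a3 (0.62, 0.79) and Slco3a1 (-0.45, 0.8), with the log2 difference and the adjusted p in parentheses. With thinned nuclei they were Klf2 (-1.01, 0.11), Ramp2 (-1.69, 0.062) and Tie1 (0.88, 0.083), and with DESeq2 Klf2 (-1.04, 0.095). The call of Npr3 was lost without Ctrl ZT16 replicate 1 (adjusted p = 0.052).

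**Figure D4:**
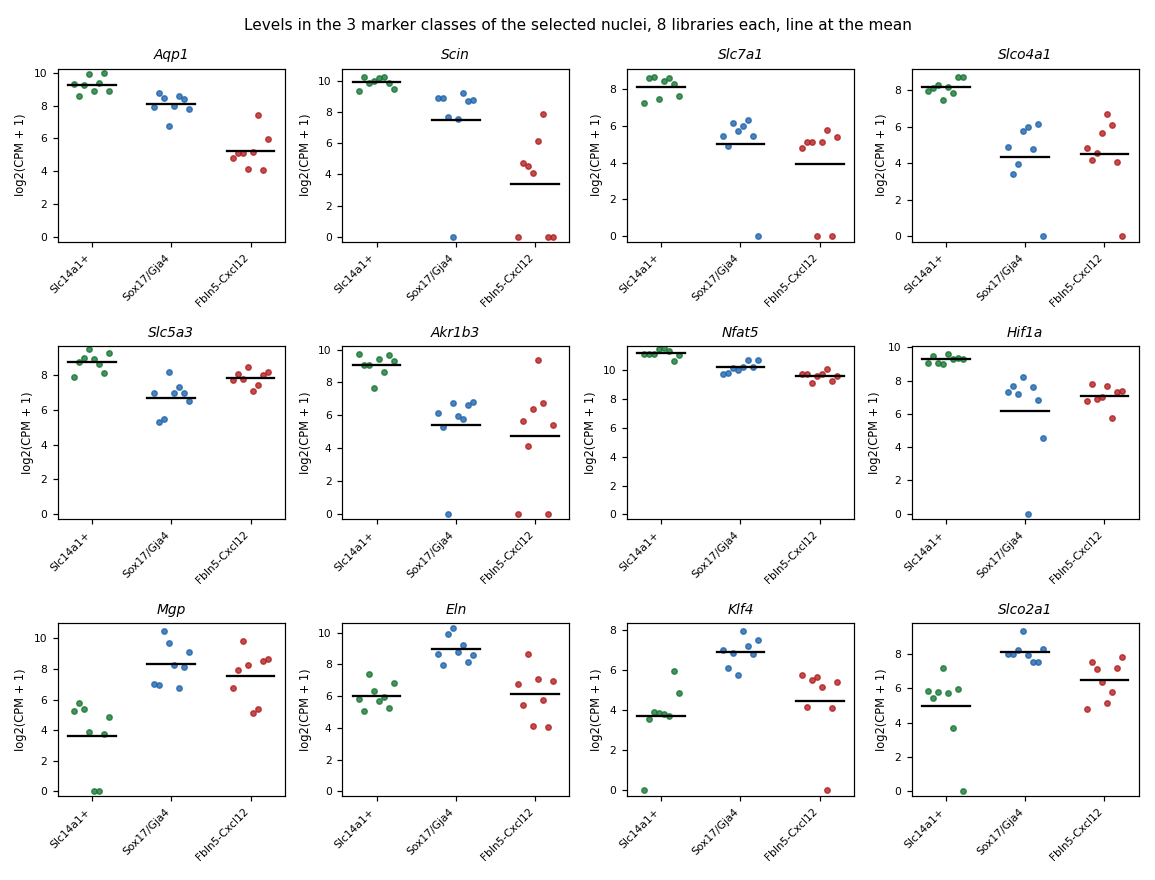
Levels of 12 genes (y axis, log2(CPM + 1)) in Slc14a1-positive, Sox17/Gja4 and Fbln5-Cxcl12 nuclei. Points are 8 libraries and lines their means. The upper 8 genes are higher in Slc14a1-positive than in Sox17/Gja4 nuclei (log2 differences 1.00 for Nfat5 to 3.29 for Slco4a1), and Mgp, Eln, Klf4 and Slco2a1 are lower.

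The abundance of the selected nuclei was then compared between time points and genotypes. They made up 3.15% and 3.35% of the endothelial nuclei (at least 2 of the 4 genes) in the Ctrl ZT4 libraries, 4.09% and 2.84% at Ctrl ZT16, 2.40% and 3.45% at cKOt ZT4, and 4.09% and 2.23% at cKOt ZT16. The 95% Wilson interval of the lowest library was 1.69 to 2.94% and that of the highest 3.34 to 5.01%, which cover counting error alone. All groups overlapped. The share was 3.31 ± 0.931% at ZT16 and 3.09 ± 0.478% at ZT4 (SD, n = 4 libraries each, two-sided exact permutation test, p = 0.686), and 3.04 ± 0.883% in cKOt and 3.36 ± 0.532% in Ctrl (p = 0.543 in the same exact test, whose smallest possible p is 0.0286). The difference between time points was 0.226 percentage points, and -0.042 percentage points without the Fbln5-Cxcl12 nuclei. The difference between genotypes was -0.316 percentage points, -0.0328 without the Fbln5-Cxcl12 nuclei (p = 0.857, exact permutation test) and -0.0356 without doublets (p = 1, exact permutation test).

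Time of day was asked in each genotype and over both. The core clock is a loop in which Arntl (Bmal1) with Clock or Npas2 drives Per, Cry and Nr1d genes that repress it in turn. Over both genotypes 6 of 7884 genes tested (0.0761%) were called between ZT16 and ZT4, 3 higher (0.0381%) and 3 lower (0.0381%), and 541 had an unadjusted p under 0.05. None of the 15 clock genes that passed the filter (of 20 listed) was among the 6. In Ctrl alone 4 of 7520 genes (0.0532%) and in cKOt alone 2 of 6400 (0.0312%) were called, and without the Fbln5-Cxcl12 nuclei the counts were 10 of 6216 (0.161%), 63 of 5799 (1.09%) and 1 of 4949 (0.0202%).

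Clock genes were sparse in so few nuclei. The repressor Nr1d1 (REV-ERBα) had 49.5 and 43.9 CPM at Ctrl ZT4, 0 and 11.5 CPM at Ctrl ZT16, 8.17 and 34.2 CPM at cKOt ZT4 and 0 and 0 CPM at cKOt ZT16. Of the ZT16 libraries 3 held 0 UMIs, which allow up to 9.38, 13.9 and 23.5 CPM, and its adjusted p was 0.28, so no fold is given. Plvap-positive nuclei of the same mice, with more UMIs, had 28.6 and 43.3 CPM at Ctrl ZT4, 1.63 and 3.41 CPM at Ctrl ZT16, 29.1 and 34.1 CPM at cKOt ZT4 and 1.85 and 3.76 CPM at cKOt ZT16. In both sets of nuclei the ZT4 libraries lay higher, apart from 1 overlap among the selected nuclei, where cKOt ZT4 replicate 1 lay below Ctrl ZT16 replicate 2.

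Nr1d2 (REV-ERBβ) had 148 and 132 CPM at Ctrl ZT4, 40.6 and 63.3 CPM at Ctrl ZT16, 114 and 116 CPM at cKOt ZT4 and 32.4 and 47.0 CPM at cKOt ZT16. The 4 ZT16 libraries lay below the 4 ZT4 libraries, with a log2 fold change of -1.54 ± 0.30 and an adjusted p = 0.093, and -1.77 ± 0.39 with an adjusted p = 0.14 without the Fbln5-Cxcl12 nuclei. The period gene Per2 had 12.4 and 40.8 CPM at Ctrl ZT4, 100.1 and 51.8 CPM at Ctrl ZT16, 57.2 and 21.4 CPM at cKOt ZT4 and 148 and 54.8 CPM at cKOt ZT16 (log2 fold change 1.48 ± 0.43, adjusted p = 0.52), with overlap between time points. Dbp, a target of the clock, and Cry1, a repressor, had adjusted p of 0.6 and 0.63. A fit without the filter on low counts called Nr1d1, Nr1d2 and Per2.

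Mgp was called higher at ZT16, with 92.7 and 147 CPM at Ctrl ZT4, 838 and 299 CPM at Ctrl ZT16, 49.0 and 47.1 CPM at cKOt ZT4 and 204 and 352 CPM at cKOt ZT16 (log2 fold change 2.34 ± 0.33 with an adjusted p = 0.0034, and 2.28 ± 0.36 with an adjusted p = 0.0085 without the Fbln5-Cxcl12 nuclei). Plvap-positive nuclei had 14.9 and 22.8 CPM at Ctrl ZT4, 38.7 and 22.2 CPM at Ctrl ZT16, 12.6 and 10.3 CPM at cKOt ZT4 and 20.9 and 23.4 CPM at cKOt ZT16. All ZT16 libraries of the selected nuclei lay above all ZT4 libraries, which the rule for named genes required, and the highest was Ctrl ZT16 replicate 1. The call was lost without cKOt ZT4 replicate 2 (adjusted p = 0.12) and when 3 markers were required (log2 fold change 1.30, adjusted p = 0.84). Edn1, which also lay higher at ZT16 in every library, had 30.9 and 47.0 CPM at Ctrl ZT4, 113 and 189.9 CPM at Ctrl ZT16, 8.17 and 55.6 CPM at cKOt ZT4 and 69.5 and 180.0 CPM at cKOt ZT16 (log2 fold change 1.71 ± 0.41 with an adjusted p = 0.31, and 1.79 ± 0.42 with an adjusted p = 0.17 without the Fbln5-Cxcl12 nuclei) and was not called.

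Ctnna2, an α-catenin, was called lower at ZT16, with 371 and 307 CPM at Ctrl ZT4, 31.3 and 46.0 CPM at Ctrl ZT16, 163 and 133 CPM at cKOt ZT4 and 46.3 and 31.3 CPM at cKOt ZT16 (log2 fold change -2.52 ± 0.28 with an adjusted p = 2.2e-04, and -3.01 ± 0.36 with an adjusted p = 3.1e-04 without the Fbln5-Cxcl12 nuclei). The time points did not overlap, which the rule for named genes required. Proximal tubule nuclei had 975 and 705 CPM at Ctrl ZT4, 207 and 340.0 CPM at Ctrl ZT16, 666 and 788 CPM at cKOt ZT4 and 309.9 and 486 CPM at cKOt ZT16 and Plvap-positive nuclei 232 and 183 CPM at Ctrl ZT4, 64.4 and 59.7 CPM at Ctrl ZT16, 179.5 and 210.1 CPM at cKOt ZT4 and 108 and 125 CPM at cKOt ZT16, so the ZT16 levels were lower there as well. Without the nuclei marked as doublets the call was lost, at a log2 fold change of -1.26 with an adjusted p = 0.49, and with nuclei thinned to 1500 UMIs it was -1.73 with an adjusted p = 0.21. The part of tubule transcripts in this difference was not tested.

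The lncRNA Gm32647 was called higher at ZT16, with 822 and 754 CPM at Ctrl ZT4, 3451 and 2717 CPM at Ctrl ZT16, 537 and 301 CPM at cKOt ZT4 and 1143 and 2336 CPM at cKOt ZT16 (log2 fold change 1.97 ± 0.31, adjusted p = 8.5e-05). Of its 440 UMIs, 405 were in Fbln5-Cxcl12 nuclei, and the gene did not pass the filter without them. It was not called without doublets, over both genotypes (adjusted p = 0.075) or in Ctrl alone (log2 fold change 0.97, adjusted p = 0.47). Gm13387 was called lower at ZT16, with 348 and 119 CPM at Ctrl ZT4, 37.3 and 38.3 CPM at Ctrl ZT16, 124 and 416 CPM at cKOt ZT4 and 26.0 and 46.7 CPM at cKOt ZT16 (log2 fold change -2.76 ± 0.67, adjusted p = 0.024). Gm13387 rested on 1 to 18 UMIs per library. It was not called in DESeq2 (adjusted p = 0.52), or in edgeR without the filter on low counts (adjusted p = 0.19) or with both biotypes in 1 fit (adjusted p = 0.24). Its call was lost without Ctrl ZT4 replicate 1, cKOt ZT4 replicate 2 or Ctrl ZT16 replicate 1 (adjusted p = 0.36, 0.49 and 0.13). The other called lncRNAs, Gm47283 (2.15 ± 0.53) and Sox2ot (-1.99 ± 0.50), were called with overlapping time points and are named here after their values were seen. Gm47283 ranged from 0 to 1495 CPM (median 322 CPM) in the selected nuclei and from 79.1 to 1604 CPM (median 471 CPM) in Plvap-positive nuclei, with its lowest levels in both cKOt ZT4 libraries in each.

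In Ctrl alone the 4 genes were Ctnna2, Gm32647, Slc5a12 and Gm6999. Slc5a12, a lactate transporter of the proximal tubule, had 872 and 492 CPM at Ctrl ZT4, 134 and 189.9 CPM at Ctrl ZT16, 294 and 231 CPM at cKOt ZT4 and 477 and 431 CPM at cKOt ZT16 (log2 fold change -2.11 ± 0.32 with an adjusted p = 0.0075 in Ctrl, and -2.46 ± 0.39 with an adjusted p = 0.0041 without the Fbln5-Cxcl12 nuclei). Its Ctrl ZT4 libraries lay above the Ctrl ZT16 libraries, which the rule for named genes required, and the cKOt libraries lay the other way round. The call in Ctrl was lost without Ctrl ZT4 replicate 1 or Ctrl ZT16 replicate 1 (adjusted p = 0.16 and 0.13), and without doublets the log2 fold change was -0.35. The 7 proximal tubule genes together had, in library order within groups, 4433 and 3691 CPM at Ctrl ZT4, 3142 and 1675 CPM at Ctrl ZT16, 2663 and 1771 CPM at cKOt ZT4 and 3744 and 2153 CPM at cKOt ZT16 in the selected nuclei. Of the 63 genes called without the Fbln5-Cxcl12 nuclei, 59 were lower at ZT16 (1.02% of genes), among them the proximal tubule genes Slc34a1, Slc5a12 and Slc27a2, and the tubule's part in these calls was not tested. The lncRNA Gm6999 had a log2 fold change of -2.40 ± 0.56 in Ctrl (adjusted p = 0.018), and in cKOt Gm32647 (1.96 ± 0.46) and Gm47283 (3.46 ± 0.85) were the 2 genes called. The call of Gm6999 was lost without Ctrl ZT4 replicate 1, Ctrl ZT4 replicate 2 or Ctrl ZT16 replicate 1 (adjusted p = 0.096, 0.35 and 0.3). That of Gm32647 was lost in Ctrl without Ctrl ZT4 replicate 2 or Ctrl ZT16 replicate 1 (adjusted p = 0.35 and 0.095) and in cKOt without Ctrl ZT4 replicate 2, cKOt ZT4 replicate 1, cKOt ZT4 replicate 2 or cKOt ZT16 replicate 2 (adjusted p = 0.059, 0.073, 0.28 and 0.52). That of Gm47283 in cKOt was lost without Ctrl ZT4 replicate 2, cKOt ZT4 replicate 1, cKOt ZT4 replicate 2 or cKOt ZT16 replicate 2 (adjusted p = 0.076, 0.21, 0.15 and 0.52), and that of Ctnna2 in Ctrl without Ctrl ZT16 replicate 1 (adjusted p = 0.06).

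Whether a time effect was particular to these nuclei was tested as the difference from the time effect in Plvap-positive nuclei. Of 14458 genes, 0 were called by edgeR and 0 by DESeq2 (0% in both), with 687 at an unadjusted p under 0.05 in edgeR. The difference was 1.43 ± 0.31 for Mgp (adjusted p = 0.24) and -1.37 ± 0.34 for Ctnna2 (adjusted p = 0.29). Without the Fbln5-Cxcl12 nuclei, 13 of 14428 (0.0901%) were called, Ctnna2 among them (-1.79 ± 0.40, adjusted p = 0.017).

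The genotype comparison asked whether loss of Bmal1 in tubules goes with changes in the selected nuclei. Arntl itself had 80.4 and 69.0 CPM at Ctrl ZT4, 90.7 and 127 CPM at Ctrl ZT16, 139 and 103 CPM at cKOt ZT4 and 181 and 133 CPM at cKOt ZT16 in the selected nuclei and 25.9 and 26.3 CPM at Ctrl ZT4, 178 and 173 CPM at Ctrl ZT16, 313 and 217 CPM at cKOt ZT4 and 316 and 277 CPM at cKOt ZT16 in proximal tubule nuclei. Where the counted tags lie relative to the deleted part of the gene was not determined here, so these levels were not read as a check of the deletion or of the labels. Both cKOt groups had higher Arntl tags than Ctrl ZT4 in both sets. In the selected nuclei the genotype difference over time points was 0.63 ± 0.27 (log2, SE, adjusted p = 0.87) and the time difference over genotypes 0.47 ± 0.27 (adjusted p = 0.8).

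At ZT4, 0 of 6989 genes (0%) were called between cKOt and Ctrl by edgeR and 0 by DESeq2, with 416 at an unadjusted p under 0.05 in edgeR. At ZT16, 1 of 7054 (0.0142%) was called, and over time points 1 of 7884 (0.0127%). Without the Fbln5-Cxcl12 nuclei the counts were 21 of 5693 (0.369%), 5 of 5123 (0.0976%) and 8 of 6216 (0.129%). Of the 21, 18 were lower in cKOt (0.316% of genes), among them the proximal tubule genes Slc34a1, Slc5a12 and Slc27a2, while Slc12a3 of the distal tubule was called higher (3.14 ± 0.65, adjusted p = 0.042). The Ctrl ZT4 libraries enter both this comparison and that of time in Ctrl. No gene of the arterial, descending vasa recta, Notch, vasoactive, junction, matrix, VEGF or solute transport lists was called between genotypes, in all selected nuclei or without the Fbln5-Cxcl12 nuclei. At most 0.369% of all genes were called in these comparisons. The absence of calls in lists this short is therefore not a result about them. The fits of the genotype comparison above did not pair libraries. With the replicate number as a block, 23 of 6989 genes were called at ZT4, 5 of 7054 at ZT16 and 20 of 7884 over time points. Whether same-numbered libraries of the genotypes were paired within a time point was not tested.

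Slc7a8, an amino acid transporter also found in the proximal tubule, had 74.2 and 72.1 CPM at Ctrl ZT4, 40.6 and 28.8 CPM at Ctrl ZT16, 73.5 and 77.0 CPM at cKOt ZT4 and 195 and 250.5 CPM at cKOt ZT16 and was called higher in cKOt at ZT16 (log2 fold change 2.62 ± 0.40 with an adjusted p = 0.016, and 4.86 ± 0.68 with an adjusted p = 0.0027 without the Fbln5-Cxcl12 nuclei). Without the doublets its log2 difference was 1.19 and not called. It was also not called in DESeq2 (adjusted p = 0.12), or in edgeR with thinned nuclei (log2 difference 1.41, adjusted p = 0.88). The call was lost without Ctrl ZT16 replicate 1, Ctrl ZT16 replicate 2 or cKOt ZT16 replicate 2 (adjusted p = 0.18, 0.47 and 0.16). The lncRNA 2310014F06Rik had 316 and 456 CPM at Ctrl ZT4, 336 and 306 CPM at Ctrl ZT16, 41.3 and 23.1 CPM at cKOt ZT4 and 51.9 and 140.1 CPM at cKOt ZT16 and was called lower in cKOt over time points (log2 fold change -2.53 ± 0.55, adjusted p = 0.018, and 0.41 in DESeq2). All 4 Ctrl libraries lay above all 4 cKOt libraries, which the rule for named genes required. Its call was lost without Ctrl ZT4 replicate 2, cKOt ZT4 replicate 1, cKOt ZT4 replicate 2 or Ctrl ZT16 replicate 1 (adjusted p = 0.11, 0.065, 0.26 and 0.16). Of its 66 UMIs, 47 were in Fbln5-Cxcl12 nuclei, and it did not pass the filter without them. In edgeR it was also not called without doublets (log2 fold change -2.09, adjusted p = 0.31) or with both biotypes in 1 fit (adjusted p = 0.099). Npas2, the partner of Arntl that can take the place of Clock, had 18.5 and 37.6 CPM at Ctrl ZT4, 59.4 and 40.3 CPM at Ctrl ZT16, 139 and 107 CPM at cKOt ZT4 and 92.7 and 133 CPM at cKOt ZT16 (log2 fold change 1.52 ± 0.33, adjusted p = 0.15) and was called by the fit without the filter on low counts (adjusted p = 0.012). It had 3.73 and 8.35 CPM at Ctrl ZT4, 45.2 and 43.5 CPM at Ctrl ZT16, 182 and 163 CPM at cKOt ZT4 and 169.7 and 136 CPM at cKOt ZT16 in Plvap-positive nuclei. In both sets each cKOt library lay above each Ctrl library, and the part of tubule transcripts in this difference was not tested.

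The difference between the time effects of the genotypes was tested directly, and 1 of 7884 genes (0.0127%) was called, Slc5a12, at 2.93 ± 0.45 (log2, SE, adjusted p = 0.02). When the Fbln5-Cxcl12 nuclei were left out, 36 of 6216 (0.579%) were called, Slc5a12 among them (3.60 ± 0.54, adjusted p = 0.0047). Without doublets the value of Slc5a12 was 0.40 and with at least 3 markers -1.11. It was no longer called without Ctrl ZT4 replicate 1, cKOt ZT4 replicate 1, cKOt ZT4 replicate 2, Ctrl ZT16 replicate 1 or cKOt ZT16 replicate 1 (adjusted p = 0.13, 0.072, 0.19, 0.12 and 0.11). This interaction was also set against that of 41339 proximal tubule nuclei, a cell type of the tubule that the deletion was aimed at. Of 19648 genes, 13 (0.0662%) were called, 5 higher (0.0254%) and 8 lower (0.0407%), and DESeq2 called 0. Without the Fbln5-Cxcl12 nuclei the count was 99 of 19646 (0.504%). For Arntl the difference was 2.47 ± 0.57 (adjusted p = 0.026), with its levels in both kinds of nuclei given above: its tags were higher at ZT16 than at ZT4 in proximal tubule nuclei of Ctrl and overlapped between time points in cKOt, and the selected nuclei showed the same order in Ctrl, with a smaller difference, and the same overlap in cKOt. DESeq2 gave 2.47 without a call, and the call was lost without Ctrl ZT4 replicate 1, Ctrl ZT4 replicate 2, cKOt ZT4 replicate 1, cKOt ZT4 replicate 2, Ctrl ZT16 replicate 1, Ctrl ZT16 replicate 2 or cKOt ZT16 replicate 1 (adjusted p = 0.1, 0.25, 0.051, 0.12, 0.16, 0.056 and 0.47) and without the Fbln5-Cxcl12 nuclei (2.02).

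**Figure D5:**
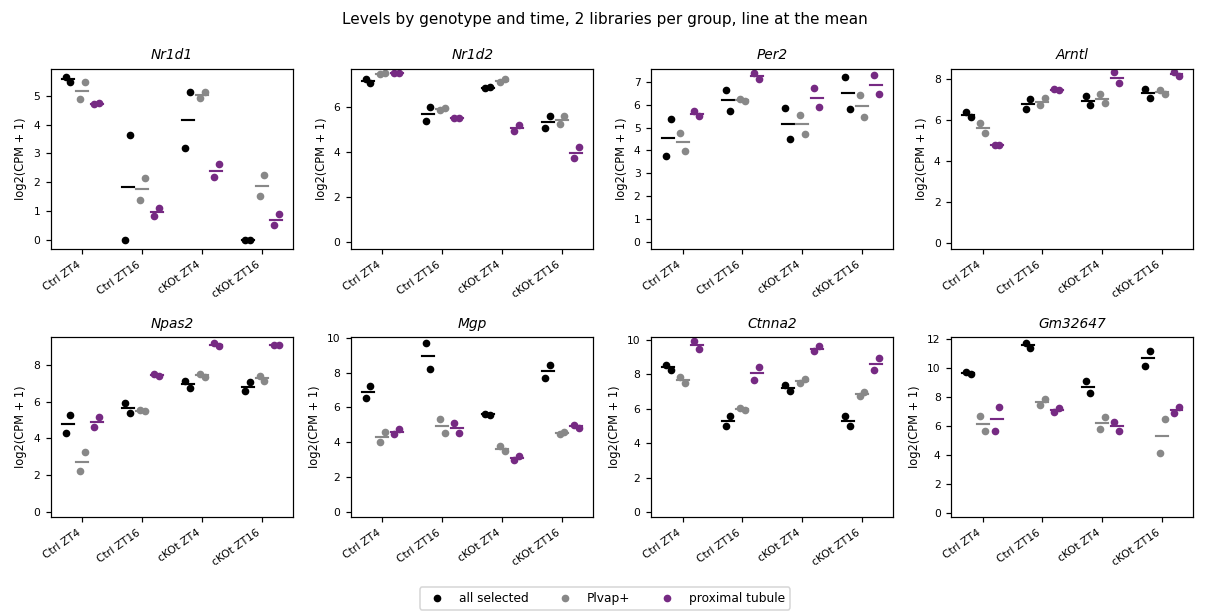
Levels of 8 genes (y axis, log2(CPM + 1)) by genotype and time in all selected nuclei, Plvap-positive endothelial nuclei and proximal tubule nuclei. Points are the 2 libraries of a group and lines their means. In the selected nuclei Nr1d2 and Ctnna2 lie lower and Mgp and Gm32647 higher in every ZT16 library than in every ZT4 library, and Npas2 is higher in every cKOt library. For Ctnna2, Mgp and Gm32647 the rule for named genes required this.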

How the data were processed

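Single-nucleus RNA-seq was measured in kidneys of 8 mice, with 2 mice in each of the groups Ctrl ZT4, Ctrl ZT16, cKOt ZT4 and cKOt ZT16, as given by the labels. The values deposited by the authors are raw UMI counts per gene and nucleus, not normalized, made with bcl2fastq 2.20 and Cell Ranger 7.1.0, per the submitters' processing notes, and limited to barcodes that Cell Ranger called as nuclei. The study's methods name an mm10 reference and the processing notes GRCm39, so no coordinates are given. The sources used here do not say how intronic reads were treated.

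The limits of the study's methods were applied, namely 500 detected genes and 800 UMIs as minimum and 2% of mitochondrial UMIs as maximum. Biotypes came from GENCODE vM39 (31674 of 32285 features matched by identifier, 41 by symbol, 570 not). Scrublet (scanpy 1.11.5, expected rate 8%) scored doublets, which were kept except in 1 alternative. Counts were summed over the nuclei of a population in each library and tested with the quasi-likelihood test of edgeR 4.0.16 (TMM, R 4.3.3), mRNAs and lncRNAs apart, with Benjamini-Hochberg adjustment within a contrast and biotype. The SE given with an edgeR log2 difference was derived from the test. It is the absolute log2 difference divided by the square root of the F statistic. Between groups, a gene was tested if 1 of the groups compared had 5 counts or more in each of its replicates, and all 8 libraries shared 1 estimate of the spread. Between populations, the same minimum of 5 had to be met in 4 or more of 16 sums, and the library was a block.

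Plvap-positive and Ehd3-positive nuclei held at least 2 of the 4 endothelial genes, the 1 capillary gene and not the other, and fewer than 2 of the 5 markers. Proximal tubule nuclei held at least 3 of 7 tubule markers and fewer than 2 endothelial genes. The selected nuclei, the gene lists and the rule for named genes were chosen with earlier results of these data known. Beside the genes of the rule, the clock genes and the lists, the rule named in each contrast of groups and direction the 5 called mRNAs and 3 called lncRNAs of smallest p whose groups did not overlap, and in each comparison of populations and direction the 10 mRNAs and 3 lncRNAs of largest fold among called genes with at least 50 CPM in the higher population of every library. Some genes that the rule names are not reported here. A gene whose tags are shared with a close paralog or an overlapping gene is uncertain, since the counting of such tags is not given. Alternatives were DESeq2 1.42.0, its size factors in edgeR, no filter, 1 fit for both biotypes, nuclei thinned to 1500 UMIs (shallower ones left out), at least 3 markers, no doublets, no selected nuclei with UMIs of at least 2 of 16 tubule markers, a replicate block and each library left out. The tubule filter left the nuclei compared with the selected ones unchanged. Leaving out the Fbln5-Cxcl12 nuclei was added after the data were seen. The tests were also run on simulated counts, and the outcome is not reported here.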

Additional observations from a re-analysis of the deposited data

Results flagged for a closer look

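In 2 clock genes 1 library stood out from the other 3 of its condition by the gap to the nearest library as a share of the range. Bhlhe40, a repressor tied to the clock, reached 84.4 CPM in Ctrl ZT16 replicate 1 while the 4 ZT16 libraries had a median of 30.6 CPM and a lowest value of 23.5 CPM (share of the range 0.853). Nr1d1 had 11.5 CPM in Ctrl ZT16 replicate 2 and 0 CPM in the other 3 ZT16 libraries (share of the range 1). This share is 1 for any value beside 3 libraries at 0, and 2 UMIs lie behind the 11.5 CPM, so Nr1d1 cannot be said to differ in that library. In all 96 groups of 4 were examined and 2 stood out, where chance alone gives about 1 in 20.

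A difference between the genotypes in the effect of time was called in the selected nuclei for Slc5a12 (log2 difference 2.93 ± 0.45), whose levels and whose loss without doublets are given above. Against the same difference in proximal tubule nuclei, Slc5a12 stood at 2.53 ± 0.48 and Arntl at 2.47 ± 0.57. Slc16a14, a member of the monocarboxylate transporter family, and Nhs were also on the higher side, at 3.18 ± 0.74 and 1.89 ± 0.45.

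On the lower side, Slc12a3, the sodium chloride cotransporter of the distal tubule, had 49.5 and 43.9 CPM at Ctrl ZT4, 81.3 and 472 CPM at Ctrl ZT16, 114 and 449 CPM at cKOt ZT4 and 60.2 and 109.6 CPM at cKOt ZT16 in the selected nuclei (-4.73 ± 0.58, adjusted p = 4.7e-12 in edgeR). Ctrl ZT16 replicate 2 and cKOt ZT4 replicate 2 were the 2 high libraries. The same 2 libraries were highest for Dgkb (-7.73 ± 1.37), Trpm6, a magnesium channel of the distal tubule (-4.61 ± 0.96), Klhl3, a regulator of Slc12a3 (-2.86 ± 0.65), and Defb1 (-3.27 ± 0.80). The part of distal tubule transcripts in these differences was not tested. Dgkb, Trpm6 and Nkain3 (-15.17 ± 3.63) had libraries at 0 UMIs, so that the size of their fitted differences depends on the prior count.

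Eln had 223 and 107 CPM at Ctrl ZT4, 475 and 317 CPM at Ctrl ZT16, 123 and 231 CPM at cKOt ZT4 and 111 and 211 CPM at cKOt ZT16 in the selected nuclei and Fam129a 6.18 and 43.9 CPM at Ctrl ZT4, 87.5 and 51.8 CPM at Ctrl ZT16, 40.8 and 81.3 CPM at cKOt ZT4 and 4.63 and 7.83 CPM at cKOt ZT16, with differences of -3.35 ± 0.63 and -5.35 ± 1.03. In Ctrl both ZT16 libraries lay above both ZT4 libraries for either gene, while in cKOt the ZT16 libraries of Fam129a lay below and those of Eln overlapped with ZT4.

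Most of these differences with the proximal tubule were not called under other processing. Without the nuclei marked as doublets the log2 differences, with edgeR's adjusted p in parentheses, were Slc12a3 -0.91 (1), Klhl3 -4.02 (0.053), Defb1 -1.83 (1), Trpm6 -2.34 (1), Slc16a14 1.38 (1), Nhs 0.57 (1), Eln -2.79 (0.27) and Fam129a -4.63 (0.25). With 1 library left out the edgeR call was lost for Slc12a3 without cKOt ZT4 replicate 2 (adjusted p = 0.12), for Klhl3 without Ctrl ZT4 replicate 1, Ctrl ZT4 replicate 2, cKOt ZT4 replicate 2, Ctrl ZT16 replicate 2 or cKOt ZT16 replicate 1 (adjusted p = 0.098, 0.099, 0.99, 0.57 and 0.45), for Defb1 without Ctrl ZT4 replicate 2, cKOt ZT4 replicate 2, Ctrl ZT16 replicate 2, cKOt ZT16 replicate 1 or cKOt ZT16 replicate 2 (adjusted p = 1, 1, 0.86, 0.43 and 0.061). It was lost for Trpm6 without Ctrl ZT4 replicate 2, Ctrl ZT16 replicate 2 or cKOt ZT16 replicate 2 (adjusted p = 0.12, 1 and 0.073), for Dgkb without Ctrl ZT16 replicate 2 or cKOt ZT16 replicate 1 (adjusted p = 1 and 0.13), for Slc16a14 without Ctrl ZT4 replicate 1, Ctrl ZT4 replicate 2, cKOt ZT4 replicate 1, cKOt ZT4 replicate 2, Ctrl ZT16 replicate 2 or cKOt ZT16 replicate 1 (adjusted p = 0.28, 0.12, 0.12, 0.19, 0.57 and 1). It was lost for Nhs without Ctrl ZT4 replicate 2, cKOt ZT4 replicate 2, Ctrl ZT16 replicate 2 or cKOt ZT16 replicate 1 (adjusted p = 0.76, 1, 0.68 and 1), for Eln without Ctrl ZT4 replicate 2, cKOt ZT4 replicate 2, Ctrl ZT16 replicate 1 or cKOt ZT16 replicate 1 (adjusted p = 0.39, 0.26, 0.15 and 0.16). It was lost for Fam129a without cKOt ZT4 replicate 2, Ctrl ZT16 replicate 1 or cKOt ZT16 replicate 1 (adjusted p = 0.46, 0.11 and 0.16), for Slc5a12 without cKOt ZT4 replicate 2, Ctrl ZT16 replicate 1 or cKOt ZT16 replicate 1 (adjusted p = 0.19, 0.053 and 0.16). For Defb1 the difference without cKOt ZT4 replicate 2 was -0.056. DESeq2 called none of the 13 genes.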

How the results depend on the processing

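The counts of genes called between groups changed most with the processing. In the order time in Ctrl, time in cKOt, genotype at ZT4, genotype at ZT16, time over genotypes, genotype over time points and interaction, the counts were 4, 2, 0, 1, 6, 1 and 1. They became 3, 0, 0, 0, 3, 0 and 1 with DESeq2, 4, 2, 0, 1, 7, 2 and 1 with its size factors in edgeR, 25, 14, 40, 17, 30, 40 and 16 with no filter on low counts, 3, 0, 0, 1, 4, 0 and 1 with both biotypes in 1 fit, 4, 1, 0, 0, 6, 1 and 1 with thinned nuclei, 0 in each with at least 3 markers (1509 to 1930 genes tested within a genotype or time point, against 6400 to 7520 with all selected nuclei), 0, 0, 0, 0, 1, 0 and 0 without doublets, 0 in each without nuclei with tubule UMIs (149 to 444 genes tested), and 63, 1, 21, 5, 10, 8 and 36 without the Fbln5-Cxcl12 nuclei. With each library left out in turn they ranged 0 to 8, 0 to 7, 0 to 10, 0 to 6, 2 to 11, 0 to 7 and 0 to 3. With the replicate number as a block they were 8, 7, 23, 5, 12, 20 and 4, but the numbers did not pair the libraries over all 4 groups together, since deviations of same-numbered libraries correlated at -0.0787 to 0.138 (Pearson, between pairs of groups, over 4766 genes) in the selected nuclei, not over 0.1 for every pair. These were 0.138 between the genotypes at ZT4, 0.113 at ZT16 and 0.132 between the time points in cKOt, and over all nuclei that passed quality control they were 0.32, 0.325 and 0.145, but -0.226 between the time points in Ctrl. Whether same-numbered libraries of the genotypes were paired within a time point was not tested. The difference from the time effect of Plvap-positive nuclei gave 0 genes, 17 with no filter, 1 with thinned nuclei, 14 without doublets, 13 without the Fbln5-Cxcl12 nuclei and 0 to 6 with a library left out. The difference from the interaction in proximal tubule nuclei gave 13, 0 with DESeq2, 9 in 1 fit, 1 thinned, 0 with 3 markers, 2 without doublets, 0 without tubule UMIs, 99 without the Fbln5-Cxcl12 nuclei and 1 to 27 with a library left out. The population counts with a library left out were 1883 to 2075 against Plvap-positive nuclei (all libraries 2176, and with 3 markers 1516, of which 268 were higher, and 2077 without nuclei with tubule UMIs, of which 178 were higher, where all selected nuclei gave 949 higher), 954 to 1084 against Ehd3-positive nuclei (all libraries 1109, and 583 with 3 markers), and 729 to 883 for the Slc14a1 split (all libraries 879), which gave 40 with 3 markers, 245 without the Fbln5-Cxcl12 nuclei and no value without nuclei with tubule UMIs. The time difference of the share, 0.226 percentage points, turned to -0.00275 with thinned nuclei, -0.00486 with 3 markers and -0.042 without the Fbln5-Cxcl12 nuclei, and ranged from -0.0335 to 0.586 with a library left out, where the genotype difference ranged from -0.666 to -0.0469. Genes whose log2 difference turned with 3 markers were 6530403H02Rik (-0.10), Nr2f2 (-0.13), Ptgis (-1.42) and Vwf (-0.85) against Plvap-positive nuclei, Nr2f2 (-0.055) against Ehd3-positive nuclei, Mecom (-0.041) and Nr2f2 (0.15) in the Slc14a1 split, Fam129a (0.21), Nhs (-0.68) and Slc5a12 (-2.04) against the proximal tubule, and Slc5a12 for time in Ctrl (0.99) and in the interaction (-1.11). Without nuclei with tubule UMIs Abcg2 (-0.89), Notch4 (-0.31), Nr2f2 (-0.17), Slc38a2 (-0.19), Slc5a3 (-0.76) and Vwf (-0.16) turned against Plvap-positive and Abcg2 (-0.59), Nr2f2 (-0.10) and Slc5a3 (-0.29) against Ehd3-positive nuclei. Without the Fbln5-Cxcl12 nuclei Nr2f2 (-0.45) and Ptgis (-0.059) turned against Plvap-positive and Agtr1a (-0.24) and Nr2f2 (-0.46) against Ehd3-positive nuclei, and without doublets Slc5a12 (-0.028) turned against the proximal tubule. Of the values of single genes under an alternative, 3489 kept their direction and their side of the threshold, 267 fell under it, 4 passed it and 26 turned. The causes were not tested. In the group comparisons 1 mRNA UMI was worth 3.13 to 8.17 CPM.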
